A study of Mus musculus with 24 samples.

Results

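Ciart, Bhlhe40 and Bhlhe41 encode auxiliary repressors of the circadian clock. These 3 genes were taken by symbol from a table of raw read counts for 54232 Ensembl gene identifiers, and all 3 passed the filter on low counts that left 20275 genes for testing. Their levels were followed in mouse retinal pigment epithelium (RPE), the pigmented layer that nourishes photoreceptors and engulfs their shed outer segments. RNA was sequenced from RPE captured by laser from frozen eyes of male mice aged 6 weeks, all of strain C57BL/6/J x 129 SvEvBrd. The mice were wild type (WT) or Per1-/-Per2Brdm1, that is, with altered copies of the clock genes Per1 and Per2. "Knockout" here names the libraries carrying that label. Each genotype was sampled at circadian time (CT) 19, 22, 1 and 10, with 3 libraries in each of 8 groups, 24 in all. Of these, 19 came from 1 eye and 5 were pools of 2 eyes, 4 knockout and 1 wild type. The labels leave it unstated whether each library is a separate animal, so the p-values measure the spread between libraries.

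In the mammalian clock, CLOCK and BMAL1 bind E-box sequences and switch on the Period and Cryptochrome genes, whose proteins then shut off CLOCK and BMAL1. CIART, also called CHRONO, is a further repressor: it binds the CLOCK and BMAL1 complex and is itself switched on by it. BHLHE40 (DEC1) and BHLHE41 (DEC2) are basic helix-loop-helix proteins that occupy E-boxes and repress from them, and Bhlhe40 is also a known target of hypoxia and of growth signals.

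The members sit on 2 chromosomes of GRCm38. Ciart (ENSMUSG00000038550) lies on the minus strand at chr3:95878503-95882251, with 6 annotated transcripts and 2261 exonic bases. Bhlhe40 (ENSMUSG00000030103) lies on the plus strand at chr6:108660629-108666925, with 4 transcripts and 4705 exonic bases. Bhlhe41 (ENSMUSG00000030256) lies on the minus strand at chr6:145858243-145865558, with 3 transcripts and 6720 exonic bases. Promoter windows, from 250 bases before to 50 after the start, were found in RefSeq (GRCm38.p6) for 2 of the 3 members, Ciart and Bhlhe41. The stretches below run 5′ to 3′ on the gene's strand and end at the most upstream transcript start taken for each gene. For Bhlhe41 this start meets the edge of the gene coordinates given above. For Ciart it lies a few bases upstream of that edge. They are shown because these genes belong to the E-box limb of the clock, and capitals mark each match to the E-box CACGTG.

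Ciart, chr3:95882258-95882478, minus strand: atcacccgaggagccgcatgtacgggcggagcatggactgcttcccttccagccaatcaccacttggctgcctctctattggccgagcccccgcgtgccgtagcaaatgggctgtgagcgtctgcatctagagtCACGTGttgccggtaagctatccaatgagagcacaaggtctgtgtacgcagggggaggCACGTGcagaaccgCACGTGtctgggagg

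Bhlhe41, chr6:145865559-145865670, minus strand: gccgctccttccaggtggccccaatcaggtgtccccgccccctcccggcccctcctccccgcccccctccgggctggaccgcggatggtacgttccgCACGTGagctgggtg

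The Ciart stretch holds 3 E-boxes, which begin 87, 29 and 15 bases before the transcript start at which the stretch ends. The last 2 are separated by 8 bases. The Bhlhe41 stretch holds 1, which begins 15 bases before the transcript start at its own end. In both genes the window is set on a start farther downstream, so these distances are not counted from it. Of 32851 mouse promoter windows, 7.15% held at least 1 CACGTG (the same letters on both strands) and 0.0883%, or 29 windows, held at least 3. Among 12 other E-box and D-box clock genes, 10 had a window; 3 of these held at least 1 E-box and 0 held 2 or more. Over the whole windows, most of which lie beyond the printed stretch for Bhlhe41, neither member held the related letters CACGTT, the D-box TTANGTAA or the receptor half-site AGGTCA on either strand, which 4.68%, 2.32% and 16.3% of all windows held. NCGTG, a loose form of the hypoxia response core that allows any first letter, was found 7 times in the Ciart window and 5 times in the Bhlhe41 window. Of all windows, 61.7% held it. CACGTG holds these letters on both strands, so part of these matches are the E-boxes given above. A match describes these letters and does not show that a protein binds there.

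Total counts per library ran from 16245067 to 32066263. Levels are CPM, reads of a gene per 1000000 of its library without correction for gene length, on library sizes scaled by TMM, and differences are log2 fold changes, knockout minus wild type, from the quasi-likelihood test of edgeR with Benjamini-Hochberg adjustment over all genes tested. Per1 and Per2, the targeted genes, gave more counts in the libraries labelled knockout: averaged over the 4 times they were higher by 1.23 ± 0.16 and 1.79 ± 0.16 on the log2 scale (SE, edgeR adjusted p = 9.78e-05 and 4.98e-07), while at CT10 the libraries of the genotypes overlapped. Brdm1 is a deletion within the Per2 coding sequence that can still be transcribed, so the Per2 counts do not check the genotype. The labels do not say what is altered in Per1, whose counts were not lower either. Every direction given below therefore rests on the labels. The 12 RPE markers had counts in every library, except that 1 of them was at 0 in at least 1 library of wild type at CT22. Their summed level was 33120 to 64770 CPM. All 12 rod photoreceptor markers had counts in every library. The summed rod level was 53530 to 77070 CPM in wild type at CT1 against 22810 to 28290 CPM in knockout. At CT22 the knockout libraries reached 26480 to 87040 CPM and the wild type libraries 15280 to 34310 CPM. In such bulk samples, fewer cells of a type and less RNA per cell cannot be told apart.

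**Figure D1:**
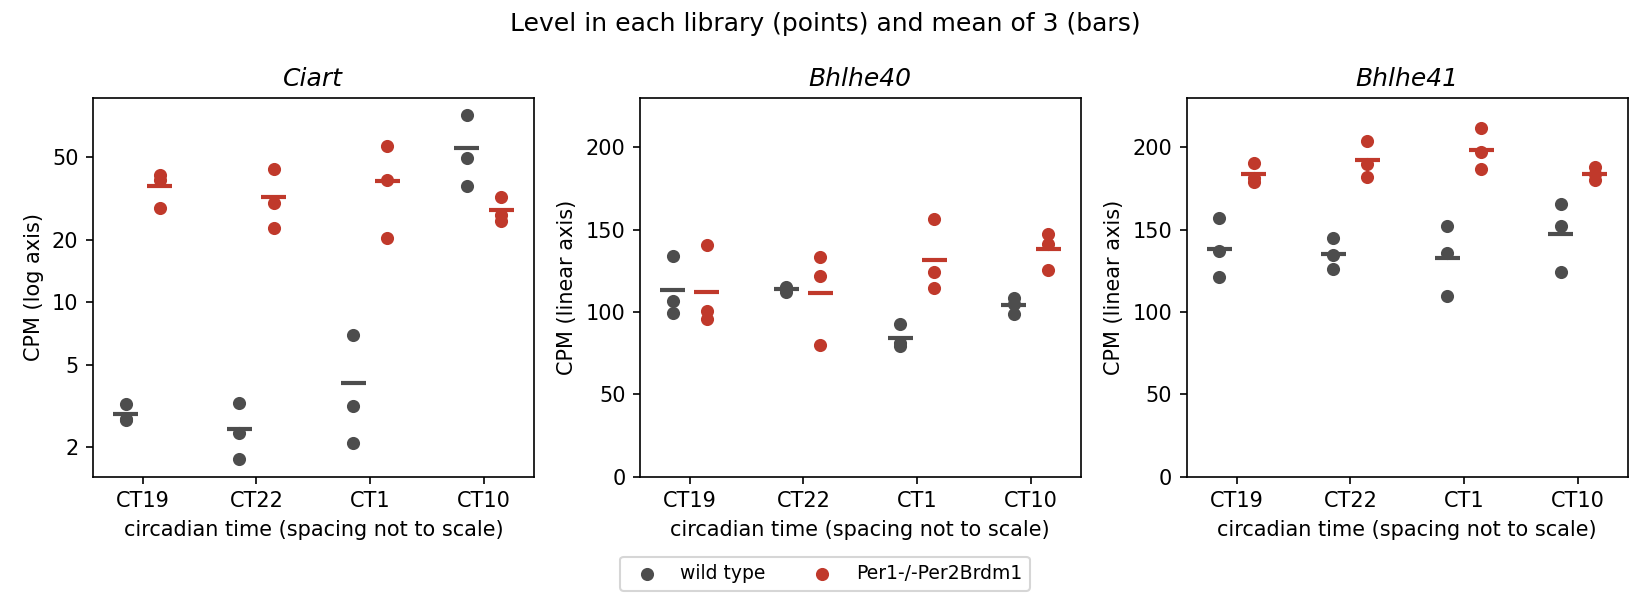
CPM of Ciart (log axis), Bhlhe40 and Bhlhe41 (linear axes) at CT19, CT22, CT1 and CT10. Each point is 1 of 3 libraries of a group and each bar their mean, grey for wild type and red for Per1-/-Per2Brdm1. Wild type Ciart is low at all times but CT10, knockout Ciart lies between 20.3 and 56.7 CPM at every time, and the knockout libraries of Bhlhe41 all lie above the wild type ones on this TMM scale, though not on total counts.

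Ciart, the repressor that is switched on by CLOCK and BMAL1, was strongly time-dependent in wild type RPE and its 4 knockout groups overlapped. In wild type it was lowest late in the subjective night and just after subjective dawn, and high late in the subjective day. In every knockout library it was above the low wild type levels. The wild type libraries held 2.71, 2.73 and 3.25 CPM at CT19, then 2.36, 1.75 and 3.29 CPM at CT22. At CT1 they held 2.1, 3.17 and 6.97 CPM, and at CT10 79.9, 36.5 and 49.4 CPM. All 3 wild type libraries at CT10 were thus above the other 9, and the nearest libraries were 5.24-fold apart.

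The group means were 2.90 ± 0.31, 2.46 ± 0.77 and 4.08 ± 2.56 CPM at CT19, CT22 and CT1, and 55.3 ± 22.3 CPM at CT10 (SD, n = 3). The mean at CT10 was 22.4 times that at CT22. On the log2 scale, the fitted wild type range over the 4 times was 4.48 (edgeR adjusted p = 1.61e-07). By the same test 192 genes, 0.947% of those tested, changed over time in wild type. Among 11567 tested genes with a mean of at least 5 CPM, 6 had a wider range than Ciart, and the median range was 0.49. At the trough the gene rested on few reads, down to 33 in 1 library, and at most 1710 in a wild type library at CT10.

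In the knockout, the libraries held 28.7, 41.1 and 38.9 CPM at CT19 and 44.2, 22.9 and 30.1 CPM at CT22. They held 20.3, 38.9 and 56.7 CPM at CT1, the widest spread of the 4 times, and 24.6, 32.3 and 26.4 CPM at CT10. These 12 libraries overlapped from time to time. The lowest of them was 2.92 times the highest wild type library outside CT10. Against wild type at CT10, 5 of the 12 were above its lowest library and 7 below it.

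The knockout means were 36.2 ± 6.63, 32.4 ± 10.8, 38.6 ± 18.2 and 27.8 ± 4.03 CPM at CT19, CT22, CT1 and CT10 (SD, n = 3), and the highest was 1.39 times the lowest. The fitted range over time was 0.48 on the log2 scale, with an edgeR adjusted p of 0.959. It was 0.81 without library 1 of the knockout at CT1 and 1.08 with the replicate block, and it missed the threshold in every alternative. The median range of the genes at or above 5 CPM was 0.41 in knockout. This test called 0 genes in knockout (0% of those tested), while 2364 had an unadjusted p under 0.05 and DESeq2 called 284, so the missed threshold does not show that Ciart was constant there.

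Between genotypes, Ciart was higher in knockout at CT19, CT22 and CT1 and had a lower mean at CT10. At CT19 the difference was 3.64 ± 0.42 on the log2 scale (SE, edgeR adjusted p = 0.000212), a ratio of means of 12.5. At CT22 it was 3.71 ± 0.42 (edgeR adjusted p = 8.49e-05), a ratio of 13.1, and at CT1 3.23 ± 0.41 (edgeR adjusted p = 0.000232), a ratio of 9.48. At CT10 the wild type mean was 1.99 times the knockout mean, a log2 difference of -0.99 ± 0.37 with a 95% interval of -1.76 to -0.23, and it missed the threshold (edgeR adjusted p = 0.179).

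The 3 libraries of the genotypes did not overlap for Ciart at any of the 4 times. That was so for 9.27% of tested genes at CT19, 12.8% at CT22, 24.7% at CT1 and 30.2% at CT10, in either direction. Calls were rarer: at CT19 0.0444% of tested genes were called higher in knockout and 0.0247% lower, at CT22 0.178% and 0.0493%, at CT1 0.222% and 0.311%, and at CT10 0.0148% and 0.0197%. The call at CT1 was lost without the 5 pooled libraries (3.11, adjusted p = 0.0523).

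The genotype difference of Ciart depended on time: it moved over a log2 range of 4.70 from CT22 to CT10 (edgeR interaction test, adjusted p = 0.000454). This test called 4.62% of tested genes, and 16 of those at or above 5 CPM had a wider range. Averaged over the 4 times, Ciart rose by 2.40 ± 0.20 on the log2 scale (SE, edgeR adjusted p = 2.28e-07), where 0.227% of tested genes were called higher and 0.148% lower. That average combines 3 positive values with a negative one and describes no single time.

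**Figure D2:**
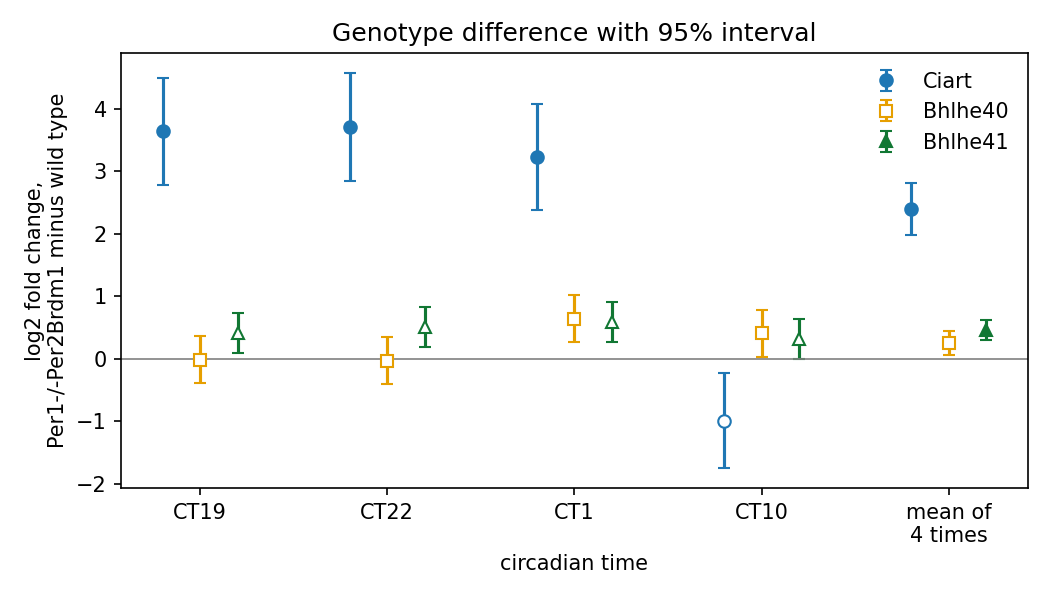
Log2 fold change of each gene, Per1-/-Per2Brdm1 minus wild type, at each circadian time and averaged over the 4 times. Points are edgeR estimates, bars their 95% intervals, and filled points have an adjusted p under 0.05. Ciart lies at 3.23 to 3.71 at CT19, CT22 and CT1 and at -0.99 at CT10, whereas every Bhlhe41 estimate lies between 0.32 and 0.58.

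Bhlhe41, which encodes DEC2, the E-box repressor whose human variants are known from short sleep, was higher in knockout on average over the times, and no difference over time was detected in either genotype. The wild type libraries held 121.1, 137.2 and 157.1 CPM at CT19 and 126.1, 134.7 and 144.9 CPM at CT22. At CT1 they held 109.9, 135.6 and 152.0 CPM, and at CT10 152.2, 165.7 and 124.3 CPM. All the knockout libraries were higher. They held 190.7, 181.2 and 179.1 CPM at CT19, 190.0, 182.3 and 204.0 CPM at CT22, 187.1, 197.1 and 211.5 CPM at CT1, and 183.7, 188.0 and 180.1 CPM at CT10.

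The lowest of the 12 knockout libraries of Bhlhe41, at 179.1 CPM, was thus above the highest of the 12 wild type libraries, at 165.7 CPM. On total counts in place of TMM this full separation was lost, since knockout then ran from 167.9 and wild type to 174.4 CPM. Of the tested genes, 6 (0.0296%) had every knockout library above every wild type one on the TMM scale. Beside Bhlhe41 they were Eif3b, Gm15348, Gzmm, Rasl10b and Trak1, which were named after their values were seen.

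The wild type means of Bhlhe41 were 138.4 ± 18.0, 135.2 ± 9.44, 132.5 ± 21.3 and 147.4 ± 21.1 CPM at CT19, CT22, CT1 and CT10 (SD, n = 3). The knockout means were 183.7 ± 6.19, 192.1 ± 11, 198.6 ± 12.3 and 184.0 ± 3.98 CPM (SD, n = 3), and the ratios of means were 1.33, 1.42, 1.5 and 1.25. The variation within groups was small, with a coefficient of variation of 2.16% to 6.19% in knockout and 6.98% to 16% in wild type. Averaged over the times, Bhlhe41 rose by 0.45 ± 0.08 on the log2 scale (95% interval 0.30 to 0.61, edgeR adjusted p = 0.00188). The call was lost without the 5 pooled libraries (0.44, adjusted p = 0.0547). It was also lost when the number in the library labels was held as a replicate block, which left 7 residual degrees of freedom (0.47, adjusted p = 0.126).

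No single time passed for Bhlhe41. Its differences were 0.41 at CT19, 0.51 at CT22, 0.58 at CT1 and 0.32 at CT10 on the log2 scale, each with a SE of 0.15, and the edgeR adjusted p-values were 1, 0.169, 0.0632 and 0.276. At CT1 it passed in the fit without library 2 of the knockout at CT22, which changes the spread shared by all groups (adjusted p = 0.0284). The fitted range over time was 0.15 in wild type (edgeR adjusted p = 0.897) and 0.11 in knockout (edgeR adjusted p = 0.999). The wild type range was 0.09 to 0.30 when 1 library was left out, the extremes being without libraries 2 and 4 of wild type at CT10, and it reached 0.37 with the replicate block. The knockout range was 0.11 to 0.18 when 1 library was left out and 0.04 to 0.22 in the other alternatives. None of these fits passed, and the median range of genes at or above 5 CPM was 0.49 in wild type and 0.41 in knockout. The difference itself moved over a log2 range of 0.26 (edgeR interaction test, adjusted p = 0.82).

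Bhlhe40, which encodes DEC1, did not pass in any comparison. Its wild type libraries held 99.3, 134.05 and 106.9 CPM at CT19 and 112.2, 114.6 and 115.3 CPM at CT22. They held 81.4, 79.2 and 92.5 CPM at CT1 and 98.8, 105.1 and 108.6 CPM at CT10. Wild type at CT1 thus lay below every other wild type group without overlap. How many tested genes show such a gap was not counted, and the test over time in wild type missed the threshold (edgeR adjusted p = 0.344). The knockout libraries held 140.5, 95.9 and 100.8 CPM at CT19, 122.1, 79.7 and 133.2 CPM at CT22, 114.7, 156.4 and 124.1 CPM at CT1, and 147.1, 141.6 and 125.8 CPM at CT10. The genotypes overlapped at CT19 and CT22, and lay apart at CT1 and CT10 with knockout higher, as did 24.7% and 30.2% of tested genes in either direction.

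The means of Bhlhe40 were 113.4 ± 18.3 and 112.4 ± 24.5 CPM at CT19, and 114.03 ± 1.58 and 111.7 ± 28.3 CPM at CT22, in wild type and knockout (SD, n = 3). At CT1 they were 84.4 ± 7.16 and 131.7 ± 21.9 CPM, a ratio of 1.56, and at CT10 104.2 ± 4.99 and 138.1 ± 11.1 CPM, a ratio of 1.33. The log2 differences were -0.01 (95% interval -0.39 to 0.36), -0.03 (-0.41 to 0.35), 0.64 (0.26 to 1.02) and 0.41 (0.03 to 0.79) at CT19, CT22, CT1 and CT10. Their edgeR adjusted p-values were 1, 0.968, 0.0776 and 0.247. At CT1, Bhlhe40 passed in the fit without library 2 of the knockout at CT22 (adjusted p = 0.0226).

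At CT1 the summed rod marker level was lower in the knockout libraries, without overlap, while 0 of the 12 rod markers passed the test (median log2 difference -1.31). With the rod marker score as a covariate, the difference of Bhlhe40 at CT1 was 0.29 on the log2 scale (edgeR adjusted p = 0.807), that of Bhlhe41 0.40 (edgeR adjusted p = 0.693) and that of Ciart 2.75 (edgeR adjusted p = 0.0186). Because the rod level did not overlap between the genotypes at CT1, this fit cannot tell rod content and genotype apart at that time. The same fit gave 0.48 for Bhlhe41 averaged over the times (edgeR adjusted p = 0.000104). Without the covariate, Bhlhe40 averaged 0.25 ± 0.09 over the times (SE, unadjusted p 0.0111, edgeR adjusted p = 0.47). Its range over time was 0.43 in wild type (edgeR adjusted p = 0.344) and 0.31 in knockout (edgeR adjusted p = 0.741). Its interaction range was 0.67 (edgeR adjusted p = 0.198), and the median of genes at or above 5 CPM was 0.75. With the rod covariate the wild type range was 0.23 and the interaction range 0.35. The knockout range was 0.46 without library 2 of the knockout at CT19 and 0.71 with the replicate block, and none of these passed.

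The order of the 8 group means set the members apart. For Ciart, wild type at CT22, CT19 and CT1 came first, in libraries that overlapped, then a gap with no overlap, then knockout at CT10, CT22, CT19 and CT1 and wild type at CT10, each overlapping its neighbour. For Bhlhe41 the 4 wild type groups came first and the 4 knockout groups last, with the only gap between them. For Bhlhe40 only wild type at CT1 lay apart from its neighbour, a gap whose share over all tested genes was not counted. Per kilobase of exon, the wild type means over all times were 7.15 CPM for Ciart, 22.1 for Bhlhe40 and 20.6 for Bhlhe41, and the knockout means 14.9, 26.3 and 28.2.

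The levels of the DEC pair relative to each other were compared next. The log2 ratio of Bhlhe40 to Bhlhe41, of CPM + 1 in each library, averaged -0.41 in wild type and -0.64 in knockout, a difference of -0.22. An exact two-sided permutation test that exchanged genotype labels within times gave p = 0.0486 over 160000 relabellings. The ratio was lower in knockout at 2 of the 4 times, -0.72 against -0.29 at CT19 and -0.81 against -0.24 at CT22. It was close at CT1 (-0.60 against -0.64) and at CT10 (-0.41 against -0.49). The result was borderline: leaving out 1 library at a time gave differences of -0.26 to -0.18 and exact p-values of 0.0176 to 0.102, and the threshold was missed in 14 of 24 cases. The ratio is of CPM without correction for gene length, so its sign does not compare the levels of the 2 genes.

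**Figure D3:**
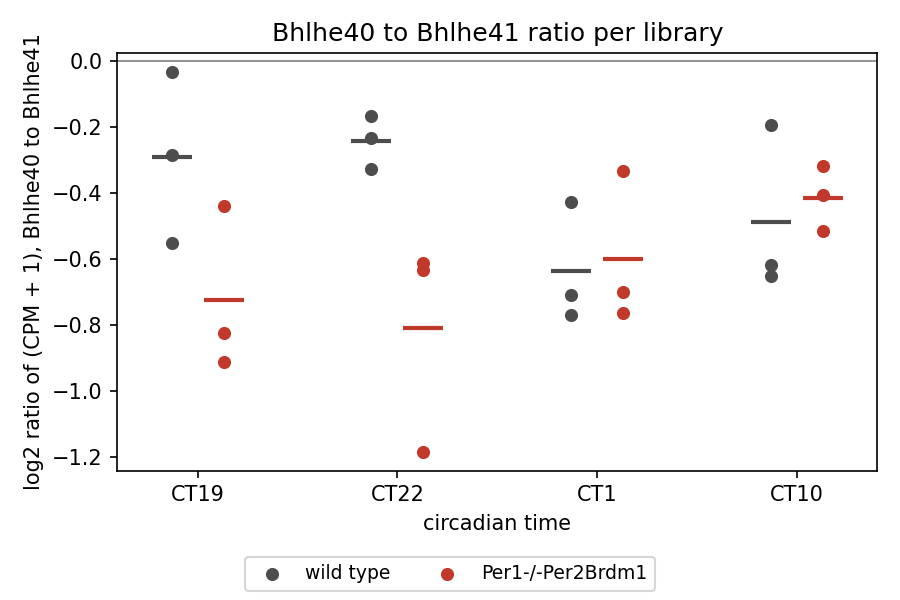
Log2 ratio of Bhlhe40 to Bhlhe41 (CPM + 1) by circadian time. Points are libraries, bars the mean of 3, grey for wild type and red for Per1-/-Per2Brdm1. The knockout means lie below wild type at CT19 and CT22 and close to it at CT1 and CT10.

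The other genes of the E-box and D-box limb were also higher in knockout on average. Of 12 listed (Per1 to Per3, Cry1, Cry2, Nr1d1, Nr1d2, Dbp, Tef, Hlf, Usp2 and Wee1), all but Wee1, or 11, rose in knockout on average over the times by the edgeR test, and 0 fell. By that test 0.227% of tested genes were called higher, and the 11 include Per1 and Per2, the altered genes. The median of the 12 was 0.71 on the log2 scale, beside 0.02 over all genes tested. At CT19, CT22 and CT1, 4, 9 and 7 of them rose, where 0.0444%, 0.178% and 0.222% of tested genes were called higher. At CT10, where only 0.0148% of tested genes were called higher, 0 of them rose. In that list Dbp, an output factor that binds D-boxes, rose by 1.03 ± 0.11 (SE, edgeR adjusted p = 1.53e-06). Tef, a related factor, rose by 0.69 ± 0.08 (SE, edgeR adjusted p = 1.01e-05), and the receptor gene Nr1d2 by 0.69 ± 0.07 (SE, edgeR adjusted p = 3.81e-06). Over time, 7 of the 12 passed in wild type, where 0.947% of tested genes did. The interaction test was passed by 8, where 4.62% of tested genes did. In knockout 0 of the 12 passed, but that test called 0 of all tested genes, so this is not particular to the list.

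Of 8 genes of the opposite, Bmal1 limb, 3 fell in knockout on average and 0 rose, with a median of -0.08. That test called 0.148% of tested genes lower. The 3 were Nfil3, a repressor at D-boxes, by -0.80 ± 0.12 on the log2 scale (SE, edgeR adjusted p = 0.000241), the CLOCK paralogue Npas2 by -2.66 ± 0.43 (SE, edgeR adjusted p = 0.000971) and Arntl, which encodes BMAL1, by -0.90 ± 0.16 (SE, edgeR adjusted p = 0.00367). These lists share the libraries with the members, and their movement is given side by side with that of Ciart.

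**Figure D4:**
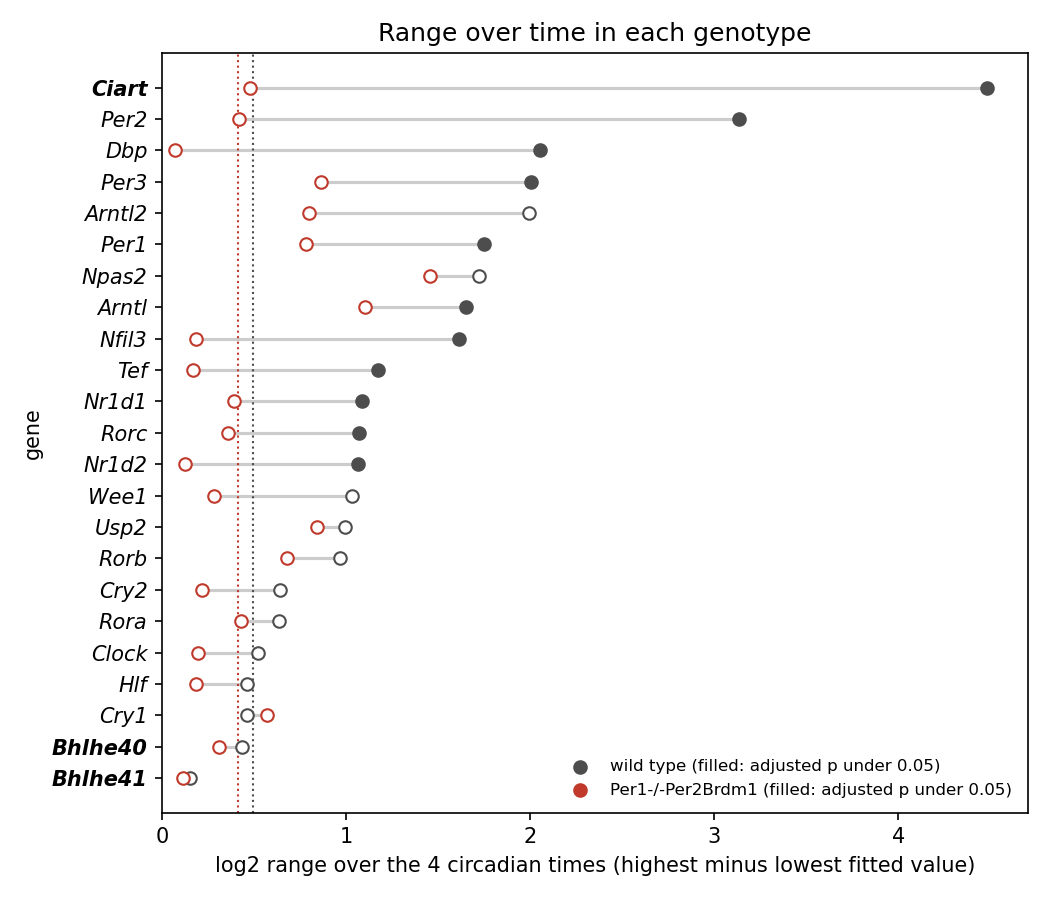
Log2 range over the 4 circadian times (highest minus lowest fitted value) of the members, in bold, and 20 listed clock genes, grey for wild type and red for Per1-/-Per2Brdm1. Filled points have an edgeR adjusted p under 0.05, and dotted lines mark the median range of genes at or above 5 CPM. Ciart has the widest wild type range shown, 4.48, and Bhlhe40 and Bhlhe41 the narrowest, 0.43 and 0.15.

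The relatives, partners and known inducers of the DEC genes gave no calls for the genotype average. That test called only 0.227% of tested genes higher and 0.148% lower, so lists of this size would mostly hold none. Of 10 HES and HEY genes, the related helix-loop-helix repressors, 8 were tested and 0 were called, with a median of 0.25 on the log2 scale. Of 8 co-repressors and receptor partners of DEC proteins (such as Hdac1, Sirt1 and Rxra), 0 were called, with a median of 0.03. Of 15 hypoxia-induced genes, 14 were tested and 0 were called (median -0.01), and of 12 immediate early genes 0 were called (median 0.08). At CT1, where the Bhlhe40 estimate was largest, 1 hypoxia gene, Ndrg1, was called, and it fell, as did 0.311% of tested genes. Over time in wild type, 1 hypoxia gene, Vegfa, passed, where 0.947% of tested genes did. The interaction test called 3 of the 14 hypoxia genes (Hk2, Vegfa and Bnip3) and 2 of the 12 immediate early genes (Atf3 and Jun), where it called 4.62% of all tested genes and neither DEC gene.

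Across the 8 group means of log2(CPM + 1), the genes most like Ciart, out of 11566, were Dbp (Pearson r = 0.99), Per2 (0.98), Per1 (0.97), Mettl13 (0.97) and Nr1d2 (0.96). Mettl13 varied over a range of 0.30 on the log2 scale, where Ciart spanned 3.97. Those most like Bhlhe41 were Cry2 (0.93), Slc15a2 (0.93), Stk3 (0.93), Coq10b (0.93) and Tsc22d3 (0.92). Those most like Bhlhe40 were Poglut1 (0.96), Ptprm (0.95), Mfap3l (0.95), Klhl42 (0.94) and Map3k7 (0.94), none of them a listed clock gene. Among the members, r was 0.77 for Ciart and Bhlhe41, 0.63 for the DEC pair and 0.37 for Ciart and Bhlhe40. These are descriptions over 8 points that share libraries, depth and composition.

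The annotation of other genes overlaps that of the members. Bhlhe40 shares a short stretch of exon with the antisense gene 0610040F04Rik, at 0 to 0.84 CPM, and Bhlhe41 shares 1280 exonic bases with Gm43909, at 0 to 2.56 CPM. Ciart overlaps the antisense gene C920021L13Rik, with 0 shared exonic bases; its 2.81 to 8.39 CPM is of the order of Ciart itself in wild type outside CT10. The strand setting of the counting is not given in the sources used here. Reads of a gene and its antisense partner therefore cannot be told apart where their exons overlap. For Ciart the annotation used here shows no such overlap, but the release used for the counting is not given.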

How the data were processed

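Per the labels' protocols, laser-captured RPE gave total RNA (RNeasy Micro kit) for libraries of the KAPA mRNA HyperPrep kit. The authors deposited 1 table of read counts per gene, which are whole numbers and were not normalized. Per the submitters' processing notes, the tools were Trimmomatic 0.32, HTSeq 0.11, HISAT2 2.1.0 and Cufflinks, and the build was GRCm38.p6. Which tool did which step, the strand setting and the annotation release are not given in the sources used here. Of 54232 identifiers, 54079 matched a symbol.

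The test was that of edgeR 4.0.16 (R 4.3.3), with filterByExpr (minimum count 10), TMM, and a robust quasi-likelihood model of 8 group means with 16 residual degrees of freedom, tested on simulated data first. The threshold was an adjusted p (Benjamini-Hochberg, over all genes tested) of 0.05. For tests over times the value is the range of the fitted log2 values. Alternatives were RLE scaling, other filters, fewer groups or libraries, marker covariates, a replicate block and DESeq2 1.42.0. Calls under them are compared as shares of genes tested, since the filters leave different numbers. Gene positions are from GENCODE on GRCm38. Libraries of a group differed by more than counting noise in every pair (chi-square over its degrees of freedom at least 30.7), so none was counted as a repeat.

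The members, gene lists and tests were chosen with earlier results of these data known. Genes named are the members, Per1 and Per2, listed genes as counts with values for at most 4 of a list by smallest p of the genotype average, the 5 genes most like each member among those at 5 CPM or more, and overlapping or adjacent genes. Another 5, with every knockout library above every wild type one, were named after their values were seen, as were listed genes of small counts of calls. Summed marker levels over all libraries were 15280 to 87040 CPM for rods, 88.2 to 428 for cones, 2911 to 6663 for inner retina, 586 to 1486 for choroid, 2115 to 5092 for melanocytes, 336 to 689 for immune cells and 56.9 to 274 for blood. No gene of these lists was called for the genotype average. The inner retina list shares Rlbp1 with the RPE list, and the melanocyte list holds pigment genes such as Tyrp1 and Dct. Both sums can therefore include transcripts of the RPE itself.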

Additional observations from a re-analysis of the deposited data

Results flagged for a closer look

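The genotype difference of Ciart was not the same at the 4 circadian times: its log2 range over the times was 4.70 (edgeR interaction test, adjusted p = 0.000454). At CT19, CT22 and CT1 all 3 knockout libraries were above all 3 wild type libraries, and at CT10 all 3 were below. In the alternatives run the range was 4.37 to 5.01 and the call held in each.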

How the results depend on the processing

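Over all alternatives, 755 values of the members' tests kept their direction and side of the threshold, 11 changed sign, 11 gained and 3 lost a call. The values of the tests over time and of the interaction are ranges, which cannot change sign, so for them only the side of the threshold was compared. The calls of Ciart for the genotype average, CT19, CT22, time in wild type and the interaction held in every one. Shares of tested genes called depended strongly on the setting, so adjusted p-values near the threshold do too. With no filter they were 1.16% for the genotype average, 0.358%, 2.47%, 4.76% and 3.06% at CT19, CT22, CT1 and CT10, 6.61% and 3.83% for time in wild type and knockout, and 8.22% for the interaction. DESeq2 gave 0.834%, 0.192%, 1.36%, 5.33%, 3.70%, 6.88%, 1.40% and 12.1% in the same order. Without the pooled libraries they were 0.0143%, 0.0573%, 0.0382% and 0.353% at the 4 times, 0.119% and 0.00955% over time and 1.42% for the interaction. With the replicate block they were 0.178% on average, 0.00986%, 0.0197% and 0.0148% at CT19, CT22 and CT1, 0.074% over time in wild type and 0.0148% for the interaction. With the rod covariate they were 0.602% on average, 0.0592%, 0.0641% and 0.434% at CT22, CT1 and CT10, and 0.133% for the interaction. With the choroid covariate they were 0.109%, 1.67% and 0.898% at those times and 6.01% over time in wild type. A filter at 5 CPM gave 1.75% at CT1 and 0.268% at CT10, and RLE 0.104% at CT10. Leaving out 1 library gave 0.0141% to 0.0796%, 0.0562% to 1.48%, 0.0936% to 3.69% and 0.00466% to 0.155% at the 4 times, 0.0751% to 3.21% and 0% to 0.014% over time, and 0.0936% to 7.90% for the interaction.

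Same-numbered libraries of different groups did not deviate together (30 pairs, median r 0.01; 222 other pairs, median -0.02), so the numbers were not taken as a pairing; the block gave 0.47 for Bhlhe41 on average. For Bhlhe40 the sign turned at CT19 at 5 CPM (0.0139), without pools (0.0897), with the block (0.019), rod (0.12) and choroid covariates (0.0628), and at CT22 with the rod (0.24) and choroid ones (0.11). Leaving out 1 library gave -0.17 to 0.12 at CT19, -0.15 to 0.14 at CT22 and 0.51 to 0.73 at CT1, and 0.48 to 0.69 for Bhlhe41 at CT1. Bhlhe41 on average was 0.44 without pools and Ciart at CT1 3.11. Calls were gained at CT1 by Bhlhe40 with no filter (0.65), at 5 CPM (0.72), with the 2 groups alone (0.66) and by DESeq2 (0.68), and by Bhlhe41 at 5 CPM (0.67) and by DESeq2 (0.62). They were also gained by Bhlhe41 at CT22 by DESeq2 (0.48), and by Ciart at CT10 with no filter (-1.05) and the 2 groups alone (-1.07). The ratio of the DEC pair differed by -0.26 to -0.18 when 1 library was left out. The cause was not tested in any case. The few reads of Ciart at its wild type trough limit the precision there.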
